A study of Mus musculus with 22 samples.

Results

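Lung RNA was analysed for 10 genes of the alveolar epithelium: Ager, Hopx, Aqp5, Pdpn, Cav1, Rtkn2, Clic5, Gprc5a, Krt8 and Krt19. The first 8 are used as genes of the type I alveolar cell, and Krt8 and Krt19 are keratins that rise in injured alveolar epithelium. They are 10 of the 20138 genes named on the array and were found there by gene name. Probes of 9 of them carried a RefSeq accession of the gene, and the probe of Rtkn2 was named only through the study's own tables.

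The mice were female C57BL/6, 8 weeks old at the start, and the labels name no transgene. Each received a single intratracheal instillation, either of vehicle (0.9% NaCl with 10% bronchoalveolar lavage fluid; 5 controls) or of Mitsui7, a multiwalled carbon nanotube, at 18 µg (6 mice), 54 µg (5 mice) or 162 µg (6 mice). Right lungs were taken 24 hours later. Lung RNA was labelled with Cy5 and hybridised on dual-colour Agilent arrays, 1 array per mouse, against a Cy3-labelled universal reference RNA from 11 mouse cell lines. Each value is therefore a log2 ratio of lung to reference, which is comparable between mice but not between probes of different genes.

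Type I cells are thin, spread cells that cover most of the gas exchange surface and form the barrier between air and capillary. Type II cells make surfactant and can give rise to type I cells after damage, passing through an intermediate state in which simple epithelial keratins are raised. Loss of type I cell transcripts and a rise of those keratins are therefore commonly read as signs of alveolar injury and repair. In RNA of whole lung, fewer cells of a type and less RNA per cell cannot be told apart.

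All 10 genes were expressed above background, and each of their spots that was used lay well above its local background on each of the 22 arrays. The arrays were printed on 7 slides of 3 or 4 arrays, and slides 3 and 6 held no control. Probes above background made up 52.1% to 62.2% of all on slide 3, 53.5% to 70.1% on slide 6 and 61.8% to 83.5% on the other slides. Slides 3 and 5 had the most spots marked as outliers by the scanner software, with 1019 to 2619 and 817 to 1180. The limma model held terms for dose and for slide and used all arrays. Calls required a limma adjusted p no higher than 0.05 together with a 1.5-fold difference or more.

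Podoplanin (Pdpn) was the member that changed most clearly. It was 2.05-fold higher at 162 µg than in controls, while Krt19 was 1.60-fold higher at 162 µg than at 18 µg. No member was called lower at any dose. Of the 10 genes, 0 were called at 18 µg, 0 at 54 µg and 1 at 162 µg, and over all 16550 expressed named genes the called share was 2.12%, 0.369% and 7.07%. At an unadjusted limma p below 0.05 there were 1 (Pdpn), 1 (Pdpn) and 4 of the 10 genes (Pdpn, Krt19, Gprc5a and Cav1), against 22.3%, 13.9% and 29.1% of all genes. Split by direction at 162 µg, 3.42% of all genes were called higher and 3.65% lower. The median log2 fold change of the 10 genes at 162 µg was 0.34 beside -0.01 over all expressed genes, with 8 of 10 values above 0. That median depended on the scaling of the arrays, being 0.03 when arrays were centred on their median and 0.01 without normalization. The median over all expressed genes was -0.18 and -0.21 in these settings.

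**Figure D1:**
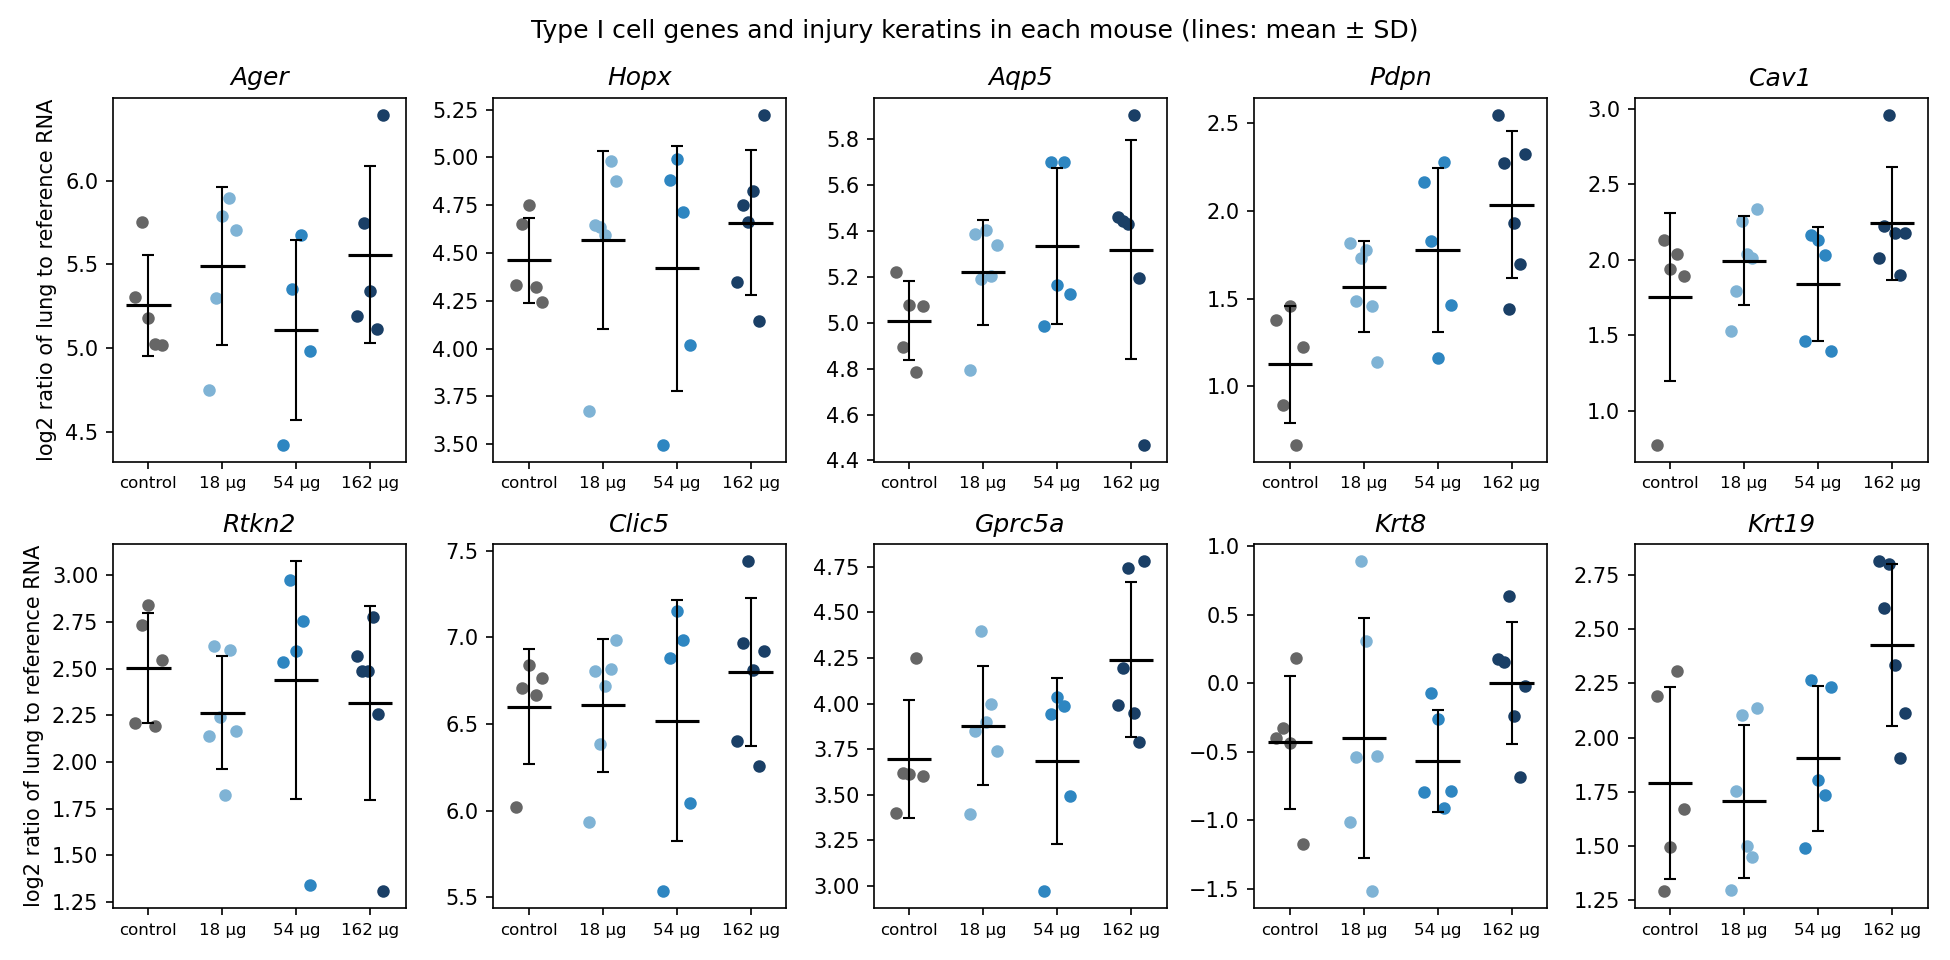
Log2 ratio of lung to reference RNA (y axis, a separate scale for each gene) for each mouse (points) of the control, 18 µg, 54 µg and 162 µg groups, with the mean and SD as lines. Pdpn and Krt19 at 162 µg lay at means of 2.04 and 2.43, above control means of 1.12 and 1.79, while the groups of Hopx, Rtkn2 and Clic5 overlapped widely.

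Pdpn codes for a mucin-type membrane glycoprotein, also called T1 alpha, that coats the apical surface of type I cells. Its log2 ratio to the reference was 1.38, 0.89, 1.46, 0.66 and 1.23 in the 5 controls. At 18 µg the lowest, median and highest of 6 mice were 1.14, 1.61 and 1.82, and at 54 µg the 5 values were 2.16, 1.83, 1.16, 2.28 and 1.46. At 162 µg the lowest, median and highest values were 1.44, 2.10 and 2.55. Of the 6 mice at 162 µg, 5 lay above all controls and the lowest overlapped with the highest control. At 18 µg and 54 µg, 4 of 6 and 4 of 5 mice lay above all controls.

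With slide in the model, the limma log2 fold change of Pdpn at 18 µg was 0.55 ± 0.21 (SE, adjusted p = 0.198). At 54 µg the limma estimate was 0.68 ± 0.22 (SE, adjusted p = 0.317). At 162 µg it reached 1.04 ± 0.21 (SE, limma adjusted p = 0.00670), with a 95% confidence interval of 0.60 to 1.48. These estimates, from the brighter of 2 Pdpn probes, stand in the order of dose, but neighbouring doses did not differ beyond their error. The difference between 54 µg and 18 µg was 0.12 (95% confidence interval -0.32 to 0.56, limma adjusted p = 0.891), and between 162 µg and 54 µg 0.36 (-0.08 to 0.80, limma adjusted p = 0.763). Of all expressed genes 0.0302% and 0% were called in these comparisons. Between 162 µg and 18 µg it was 0.48 (0.07 to 0.89, limma adjusted p = 0.209).

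A second Pdpn probe, dimmer than the first, moved the same way. Controls gave log2 ratios between -0.66 and 0.36, and mice at 162 µg between 0.85 and 2.41, where all 6 mice lay above all controls. Genes with all 6 mice above all controls made up 3.77% of those expressed. The log2 fold change of this probe was 0.93 at 18 µg (adjusted p = 0.0624), 0.94 at 54 µg (adjusted p = 0.188) and 1.49 at 162 µg (adjusted p = 0.00171) in limma.

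The arrays of a slide can be compared directly where the slide held a control. Against the control of its own slide, Pdpn was higher on 4 of 4 slides for the low dose (by 0.23 to 1.07), on 3 of 3 for the middle dose (by 0.37 to 1.05) and on 4 of 4 for the high dose (by 0.47 to 1.66). Leaving out each of the 22 mice in turn kept its call at 162 µg every time, the estimate lying between 0.90 and 1.17. Without slides 3 and 6, a setting chosen after seeing the data, the call was kept at 0.92 (limma adjusted p = 0.0111). The call was lost with median centring (0.67, limma adjusted p = 0.463) and without normalization (0.66, limma adjusted p = 0.959), settings in which the median of all expressed genes was -0.18 and -0.21.

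**Figure D2:**
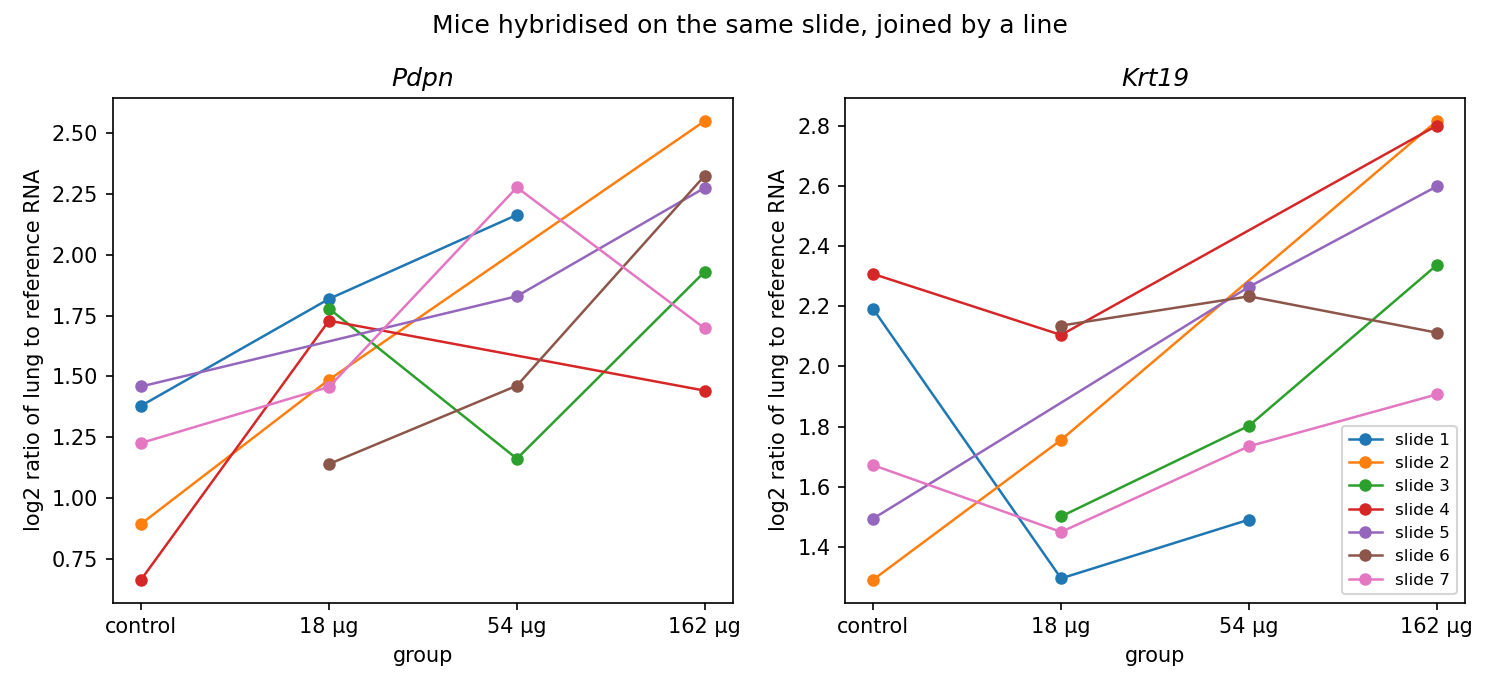
Log2 ratio of Pdpn and Krt19 (y axis) by group (x axis), with the mice hybridised on 1 slide joined by a line of 1 colour. Each line that starts at a control and reaches 162 µg ends higher than it began, by 0.47 to 1.66 for Pdpn and by 0.24 to 1.52 for Krt19.

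The promoter of Pdpn is shown because Pdpn was the called gene. Those of Ager and Clic5, for the receptor of advanced glycation end products and a chloride intracellular channel protein, are shown because these genes varied together over mice without being called. Their Pearson correlation, with each group set to its own mean, was 0.58. Each was closer to Hopx, at 0.87 for Ager and 0.83 for Clic5. Promoters of 7 of the 10 genes were in the RefSeq table used (build GRCm38.p6), and those of Krt19, Gprc5a and Rtkn2 were not. Each sequence gives the 250 bases before the annotated start, 5′ to 3′ on the strand of the gene: chr4:143299565-143299814 (minus strand) for Pdpn, chr17:34597600-34597849 (plus strand) for Ager and chr17:44188322-44188571 (plus strand) for Clic5. Capitals mark matches on either strand to the 5 motifs searched.
Pdpn: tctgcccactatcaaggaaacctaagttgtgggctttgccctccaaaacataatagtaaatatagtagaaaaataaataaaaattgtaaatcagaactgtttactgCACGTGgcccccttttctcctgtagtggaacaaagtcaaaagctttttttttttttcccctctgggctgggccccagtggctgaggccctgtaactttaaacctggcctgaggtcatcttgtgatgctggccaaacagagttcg
Ager: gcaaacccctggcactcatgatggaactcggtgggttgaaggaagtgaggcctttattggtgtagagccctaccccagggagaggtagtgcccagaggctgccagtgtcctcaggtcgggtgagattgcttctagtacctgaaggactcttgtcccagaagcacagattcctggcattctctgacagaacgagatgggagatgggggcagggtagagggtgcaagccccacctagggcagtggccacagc
Clic5: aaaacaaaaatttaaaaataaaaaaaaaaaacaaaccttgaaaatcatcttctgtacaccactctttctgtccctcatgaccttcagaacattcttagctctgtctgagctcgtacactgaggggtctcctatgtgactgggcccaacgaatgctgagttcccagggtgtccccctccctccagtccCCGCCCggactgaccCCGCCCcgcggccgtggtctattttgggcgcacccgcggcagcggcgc

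Among the motifs searched, the E-box, spelled CACGTG, was held by 6.02% of 32851 promoters of the same length. The GC box, with the letters GGGCGG, was in 32.7% of them. The TATA box, searched as TATAAA, was in 12.4%. The site of AP-1, searched as TGANTCA, was in 6.75%, and the site of TEAD factors, searched as GGAATG, was in 12.6%. No matches overlapped in the sequences printed. The Pdpn promoter held 1 E-box, starting 144 bases before the annotated start, and none of the other 4 motifs. An E-box was not particular to the called gene. Of the promoters not shown, 1 of the 2 of Hopx (86 bases before the start) and that of Aqp5 (87 bases) also held 1, and neither gene was called. The Clic5 promoter held 2 GC boxes, 63 and 48 bases before the start, and the Ager promoter held none of the 5. G and C made up 43.2% of the Pdpn sequence, 57.6% of that of Ager and 52.8% of that of Clic5. These matches describe the letters and are not measurements of binding.

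Pdpn is also expressed by lymphatic endothelium and mesothelium, so their markers were read beside it. Of 6 mesothelial markers, 0 were called in limma at any dose, with 2, 0 and 1 at an unadjusted p below 0.05 from the low to the high dose. In the same order their median log2 fold changes were 0.81, -0.04 and -0.14. Mesothelin (Msln), the brightest, had limma estimates of 1.04 (adjusted p = 0.0548), 0.47 (adjusted p = 0.709) and 0.82 (adjusted p = 0.0722) in dose order. It lay above all controls in 6 of 6 mice given 162 µg, as did 3.77% of expressed genes. The other 5 markers had log2 fold changes of -0.24 (Lrrn4) to 0.34 (Wt1) at 162 µg. Upk1b, the second brightest of the list in controls, had -0.22. The mean log2 level of the list, set to 0 over controls, lay between -0.47 and 0.51 in controls and between -0.56 and 1.33 in mice of the low dose. It lay between -0.75 and 0.56 in those of the middle dose. At 162 µg the level was 1.34 in replicate 5 and between -0.43 and -0.02 in the other 5 mice. Of 4 lymphatic markers 3 were expressed and 0 were called against controls in limma, with 1 at an unadjusted p below 0.05 at each dose. Prox1, the defining transcription factor, was not well above background on any array. Lyve1 had 1.42 (limma adjusted p = 0.0789) and Mmrn1 0.39 (limma adjusted p = 0.455) at 162 µg, and Mmrn1 was called between 162 µg and 18 µg (1.04, limma adjusted p = 0.0135, lost without normalization). The mean level of the 3 expressed lymphatic markers ranged from -0.61 to 0.34 in controls and from 0.02 to 1.32 at 162 µg. The part of these cells in the Pdpn result was not tested.

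The keratins Krt8 and Krt19 form intermediate filaments of simple epithelia, in airway as well as alveolus. Krt19 had log2 ratios of 2.19, 1.29, 1.49, 2.31 and 1.67 in controls. At 18 µg its lowest, median and highest values were 1.30, 1.63 and 2.14, and at 54 µg the 5 values were 1.49, 2.26, 1.80, 1.73 and 2.23. At 162 µg the lowest, median and highest were 1.91, 2.47 and 2.82. All mice at 18 µg and 54 µg lay within the range of the controls. At 162 µg, 4 of 6 mice lay above all controls, and 4 of 6 above all mice at 18 µg.

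In limma, Krt19 differed from controls by -0.07 ± 0.20 (SE, adjusted p = 0.922), 0.20 ± 0.21 (SE, adjusted p = 0.884) and 0.61 ± 0.20 (SE, adjusted p = 0.0794) in dose order. Tested directly, 162 µg exceeded 18 µg by 0.68 ± 0.18 (SE, 95% confidence interval 0.29 to 1.07, limma adjusted p = 0.0452). Krt19 was the 1 member called in this comparison, in which 5.06% of all expressed genes were called and 3.39% were called higher. At an unadjusted limma p below 0.05 there were 2 of the 10 genes, Krt19 and Pdpn, against 26.6% of all genes. On the slides with both a control and a mouse at 162 µg, Krt19 was higher in the latter on 4 of 4 (0.24 to 1.52), and against 18 µg on 4 of 5 slides (-0.02 to 1.06). The call between 162 µg and 18 µg was near its threshold and was kept in 8 of 22 fits with 1 mouse left out. It was lost without control replicate 3, 4 or 5, 18 µg replicate 1, 2, 3, 4 or 5, 54 µg replicate 4 or 162 µg replicate 1, 2, 3, 4 or 5, where the estimates were 0.54 to 0.74. Against controls, Krt19 passed the threshold at 162 µg without control replicate 1 (0.78, limma adjusted p = 0.0132) or 162 µg replicate 6 (0.70, limma adjusted p = 0.0402).

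Krt8 had log2 ratios of -0.40, -0.33, -0.43, 0.18 and -1.18 in controls, and a lowest, median and highest value of -0.69, 0.06 and 0.64 at 162 µg. At 18 µg its values spread from -1.52 to 0.89 and at 54 µg from -0.91 to -0.08. The groups overlapped, with 1 of 6 mice at 162 µg above all controls. Its log2 fold change was 0.05 (adjusted p = 0.936), 0.04 (adjusted p = 0.986) and 0.37 (adjusted p = 0.321) at the 3 doses in limma. At 162 µg its 95% confidence interval was -0.02 to 0.77. Within slides the difference between 162 µg and control was above 0 on 4 of 4 slides, from 0.46 to 0.59. Another probe that the study's tables name Krt8 had no matched RefSeq accession and was not used. Krt18, the usual filament partner of Krt8, had 0.17 (limma adjusted p = 0.755) at 162 µg.

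Among 11 other keratins that were expressed, 1 was called at 162 µg against controls. This was Krt7, a keratin of simple and ductal epithelia, at 1.17 ± 0.19 (SE, limma adjusted p = 0.00156), where 6 of 6 mice exceeded every control, as in 3.77% of expressed genes. Krt7 also rose between 18 µg and 162 µg, by 0.87 (limma adjusted p = 0.00879), a call lost without normalization and with quantile normalization. Krt23 was called lower between the same doses (-0.64, limma adjusted p = 0.0249), a call kept in 2 of 6 alternative settings (5 other scalings or sources of the values, and the fit without slides 3 and 6). The median of the 11 genes at 162 µg was -0.26, against -0.01 over all expressed genes. Krt10, a keratin of differentiated squamous epithelium, had -0.56 (limma adjusted p = 0.00925) and lay below all controls in 6 of 6 mice, as did 4.57% of expressed genes, but its change was under the 1.5-fold limit. The basal keratins Krt5 (-0.29, limma adjusted p = 0.758) and Krt14 (-0.26, limma adjusted p = 0.309) were not called. Against controls, the call of Krt7 was lost with median centring (0.79) and without normalization (0.77).

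Airway cells also carry Krt8 and Krt19, and 2 of 6 airway markers were called lower at 162 µg. These were Scgb3a2, a secretoglobin of club cells (-2.03, limma adjusted p = 0.0469), and Cyp2f2, a club cell cytochrome P450 (2.01-fold lower, limma adjusted p = 0.00509). Scgb3a2 was also called lower at 18 µg (-2.48, limma adjusted p = 0.0446), and Scgb1a1, the brightest of the list, had -0.36 (limma adjusted p = 0.605) at 162 µg. Of the same 6 settings, 3 kept the call of Scgb3a2 at 162 µg, 4 that at 18 µg and 4 that of Cyp2f2. The mean level of the 6 markers ranged from -0.36 to 0.55 in controls and from -1.08 to 0.26 at 162 µg, where its median was -0.68.

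**Figure D3:**
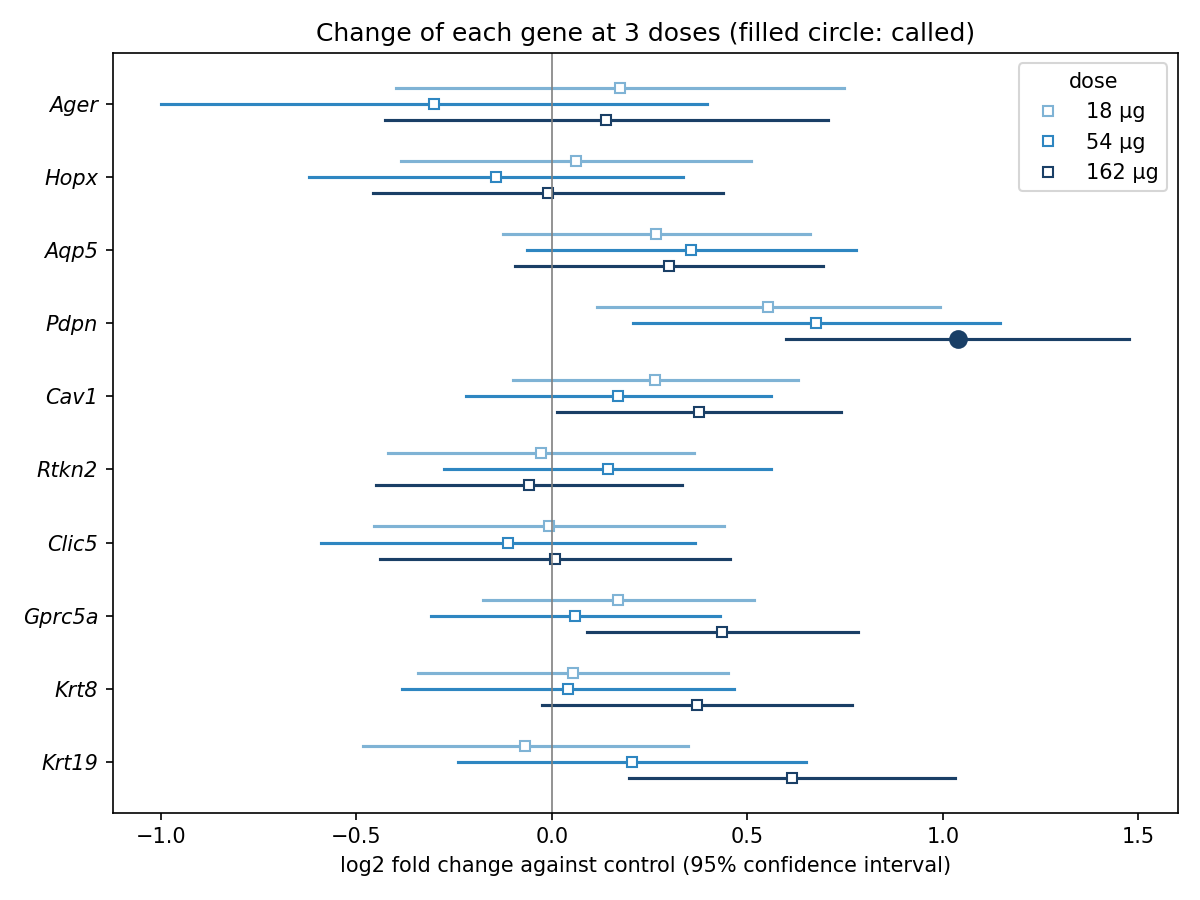
Log2 fold change against control (x axis) with its 95% confidence interval for each gene at 18 µg, 54 µg and 162 µg. The interval of Pdpn at 162 µg, 0.60 to 1.48, belongs to the 1 called value (filled circle), and those of Hopx, Rtkn2 and Clic5 covered 0 at each dose.

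Pdpn and Gprc5a aside, 6 members mark type I cells (Ager, Hopx, Aqp5, Cav1, Rtkn2 and Clic5). Of these, 0 were called in limma at any dose. At 162 µg they had log2 fold changes of -0.06 (Rtkn2) to 0.38 (Cav1), and 1 of them, Cav1, had an unadjusted p below 0.05. Gprc5a, given below, had 0.44 at 162 µg, also with an unadjusted limma p below 0.05, and was not called. At 18 µg the 6 values lay between -0.03 and 0.27 and at 54 µg between -0.30 and 0.36. The lower ends of the 95% confidence intervals at 162 µg correspond to 0.728-fold (Hopx), 0.733-fold (Rtkn2), 0.738-fold (Clic5), 0.744-fold (Ager), 0.937-fold (Aqp5) and 1.01-fold (Cav1) of control. A fall below these levels lies outside the intervals, and smaller changes in either direction were not detectable with this number of arrays. Among the alternative settings tried, the values of Ager, Hopx, Aqp5 and Clic5 at 162 µg took either sign, so no direction is given for them.

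Ager, a multiligand receptor of the basal membrane of type I cells, had log2 ratios of 5.31, 5.75, 5.18, 5.02 and 5.02 in controls and 5.12 to 6.39 (median 5.34) in 5 mice at 162 µg. One spot each at 18 µg, 54 µg and 162 µg was marked as an outlier and left out. Ager had the widest errors of the 10 genes. Its change at 162 µg was 0.14 (standard error 0.26, limma adjusted p = 0.876). The groups overlapped, with 1 of 5 mice at 162 µg above all controls.

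Hopx, a homeodomain protein without DNA binding that marks the type I lineage, had log2 ratios of 4.33, 4.65, 4.75, 4.32 and 4.25 in controls and 4.14 to 5.22 (median 4.71) at 162 µg. Its change there was -0.01 (standard error 0.21, limma adjusted p = 0.992). A second probe gave 0.29 (limma adjusted p = 0.559), so the 2 probes differed in sign and neither was called. At 18 µg the mouse numbered 1 had the lowest value, 3.67.

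Aqp5, the water channel of the apical membrane, had log2 ratios of 5.22, 4.89, 5.08, 4.78 and 5.07 in controls, and 4.47 to 5.91 (median 5.44) at 162 µg. Of the 6 mice at 162 µg, 4 lay above all controls and 1 below all of them. Its limma estimates in dose order were 0.27 (adjusted p = 0.555), 0.36 (adjusted p = 0.687) and 0.30 (adjusted p = 0.456), and its second probe gave 0.39, 0.18 and 0.30, without a call.

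Clic5, which links membrane and actin cytoskeleton, had log2 ratios of 6.02, 6.71, 6.84, 6.67 and 6.77 in controls and 6.26 to 7.44 (median 6.87) at 162 µg. Its change at 162 µg was 0.01 (standard error 0.21, limma adjusted p = 0.994). Rtkn2 had 2.21, 2.73, 2.84, 2.19 and 2.55 in controls and 1.31 to 2.77 (median 2.49) at 162 µg, a change of -0.06 (standard error 0.19, limma adjusted p = 0.935). The groups overlapped for both genes. At 162 µg, 3 of 6 mice lay above all controls in Clic5 and 0 in Rtkn2, where 1 lay below all of them.

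Cav1 codes for the coat protein of caveolae, which are abundant in type I cells and in capillary endothelium. Its log2 ratios were 0.77, 2.13, 1.94, 2.04 and 1.89 in controls and 1.90 to 2.96 (median 2.18) at 162 µg, where 4 of 6 mice lay above all controls. Its change was 0.38 (standard error 0.17, limma adjusted p = 0.260). Of 7 caveola partners 0 were called in limma at any dose, with a median of 0.10 at 162 µg and 1, 1 and 3 genes at an unadjusted p below 0.05 in dose order. Cavin3 had 0.45 (limma adjusted p = 0.0459), under the 1.5-fold limit, and Cavin1 -0.36 (limma adjusted p = 0.268). Of 6 blood endothelial markers, Kdr was called higher at 18 µg (0.65, limma adjusted p = 0.0479), a call kept in 1 of 6 alternative settings, and 0 were called at 162 µg, where 0 had an unadjusted limma p below 0.05 and Cldn5 and Cdh5 stood at 0.05 and 0.04. Their mean level ranged from -0.58 to 0.56 in controls and from -0.50 to 0.75 at 162 µg.

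Gprc5a, an orphan receptor induced by retinoic acid and expressed in type I cells, had log2 ratios of 3.40, 3.62, 3.61, 4.25 and 3.60 in controls. At 162 µg the lowest, median and highest values were 3.79, 4.09 and 4.78. All 6 mice at 162 µg lay above 4 of the controls, and 2 of 6 lay above the highest control as well. The change was 0.17 (adjusted p = 0.697), 0.06 (adjusted p = 0.978) and 0.44 (standard error 0.16, adjusted p = 0.147) in limma, and within slides it was above 0 on 4 of 4 slides at 162 µg (0.19 to 0.58). With the Cy5 channel read alone, Gprc5a passed the threshold at 162 µg (0.78, limma adjusted p = 0.0129).

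**Figure D4:**
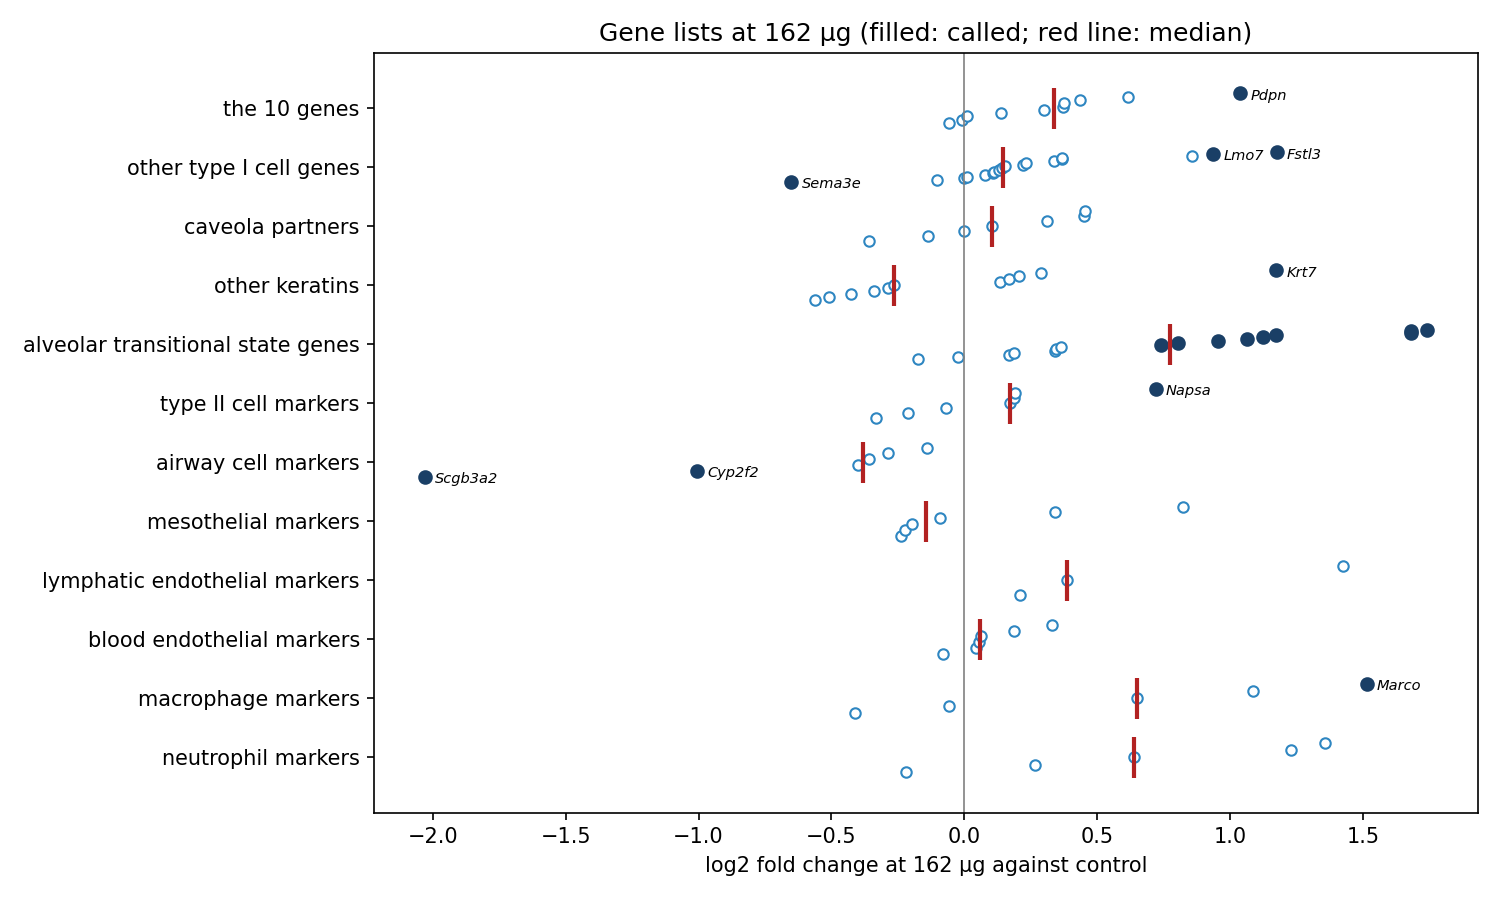
Log2 fold change at 162 µg against control (x axis) for the expressed genes of each list, with called genes filled and named where 3 or fewer were called, and the median of each list as a red line. The 10 genes had a median of 0.34, other type I cell genes 0.15 and alveolar transitional state genes 0.77, with 9 of 16 called. The lists were chosen with earlier results of these data known.

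In a wider list of 18 other type I cell genes, all expressed, 2 were called higher and 1 lower at 162 µg, where 7.07% of all expressed genes were called. The median of the list was 0.15, with 15 of 18 values above 0. Follistatin-like 3 (Fstl3), which binds activin, rose by 1.17 (limma adjusted p = 7.01e-04) and the actin-associated Lmo7 by 0.93 (limma adjusted p = 0.00678), each exceeding every control in 6 of 6 mice. The guidance cue Sema3e fell by 0.65 (limma adjusted p = 0.0109), below all controls in 6 of 6. Of all expressed genes, 3.77% lay above all controls in every mouse at 162 µg and 4.57% below. The calls of Fstl3 and Lmo7 were lost with median centring and without normalization, and that of Sema3e was kept in 2 of 6 alternative settings. In limma 0 of 18 were called at 18 µg and 54 µg, with 1 and 3 at an unadjusted p below 0.05. Fstl3 was also called higher between 162 µg and 18 µg (0.94, limma adjusted p = 0.00264). The mean level of the list ranged from -0.29 to 0.27 in controls (median 0.08) and from -0.13 to 0.52 at 162 µg (median 0.32).

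Of 16 genes used as markers of the alveolar transitional state, 9 were called higher at 162 µg and 0 lower, with a median of 0.77. Over all expressed genes 3.42% were called higher. The list was chosen with earlier results of these data known, so its count is a description and not a test. The cyclin-dependent kinase inhibitor Cdkn1a (1.74, limma adjusted p = 0.00296), tissue factor F3 (1.68, limma adjusted p = 6.32e-04), the EGF receptor ligand Areg (1.68, limma adjusted p = 0.0182), Krt7 (1.17), the matricellular Ccn2 (1.12, limma adjusted p = 8.61e-04) and the lectin Lgals3 (1.06, limma adjusted p = 0.00358) had the largest changes. The other called genes were Hbegf, Itgb6 and Plaur. Not called were Krt18, Cldn4 (0.34), Sfn (0.34), Anxa1 (0.36), Ndrg1 (-0.03), Nupr1 (-0.17) and Tnip3 (0.19). At 54 µg Hbegf was the 1 called gene (1.30, limma adjusted p = 0.0167, lost with median centring and without normalization), and at 18 µg 0 were called in limma, with 7 at an unadjusted p below 0.05.

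Between 162 µg and 18 µg, Ccn2, F3, Cdkn1a and Krt7 of the transitional list were called higher, the comparison in which Krt19 was also called. When arrays were centred on their median, 1 of the 16 genes was called at 162 µg, and 0 without normalization, while the values of the 9 genes stayed above 0 in both. Other settings of scaling gave 8 or 9. Several of these genes are expressed in macrophages, endothelium or fibroblasts as well. Of 5 macrophage markers, Marco was called higher at 162 µg (1.51, limma adjusted p = 0.00460) and Chil3 at 18 µg (1.73, limma adjusted p = 0.0457), calls kept in 4 and 2 of 6 alternative settings. The macrophage mean level ranged from -0.16 to 0.35 in controls and from 0.06 to 0.84 at 162 µg. Of 5 neutrophil markers 0 were called in limma at any dose (1, 0 and 2 at an unadjusted p below 0.05), with Csf3r at -0.22 and S100a9 at 0.64 at 162 µg. Their mean level was 1.86 in control replicate 2 and between -0.88 and -0.25 in the other 4 controls. At 162 µg it was -0.51 in replicate 6 and between 0.49 and 1.76 in the other 5 mice. Their part in the result was not tested.

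Type II cells, the source of new type I cells, were read through 7 markers. Napsa, a protease that processes surfactant proteins, was called higher at 162 µg (0.72, limma adjusted p = 0.0356), a call kept in 2 of 6 alternative settings, and 0 were called in limma at 18 µg or 54 µg, with 2 and 0 at an unadjusted p below 0.05. The surfactant genes Sftpc (0.19, limma adjusted p = 0.877) and Sftpa1 (0.17, limma adjusted p = 0.761), the brightest of the list in controls, were not called. The mean level of the 7 markers ranged from -0.20 to 0.16 in controls and from -0.07 to 0.57 at 162 µg.

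Over mice, the 10 genes did not move as 1 block. With each group set to its own mean, 33 of 45 pairs had a Pearson correlation above 0, with a median of 0.19 and a range of -0.40 to 0.87. Ager and Hopx had 0.87, Hopx and Clic5 0.83, Cav1 and Clic5 0.80, and Clic5 and Gprc5a 0.70. Pdpn stood outside this set, at -0.40 with Cav1, -0.37 with Clic5 and -0.27 with Gprc5a. Aqp5 and Rtkn2 had 0.63 with each other. With the genes of the set they had only -0.12 (Rtkn2 with Ager) to 0.34 (Rtkn2 with Cav1). Krt8 and Krt19 had 0.54. These are descriptions over 22 arrays that share slides and the reference RNA, and no test was made.

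**Figure D5:**
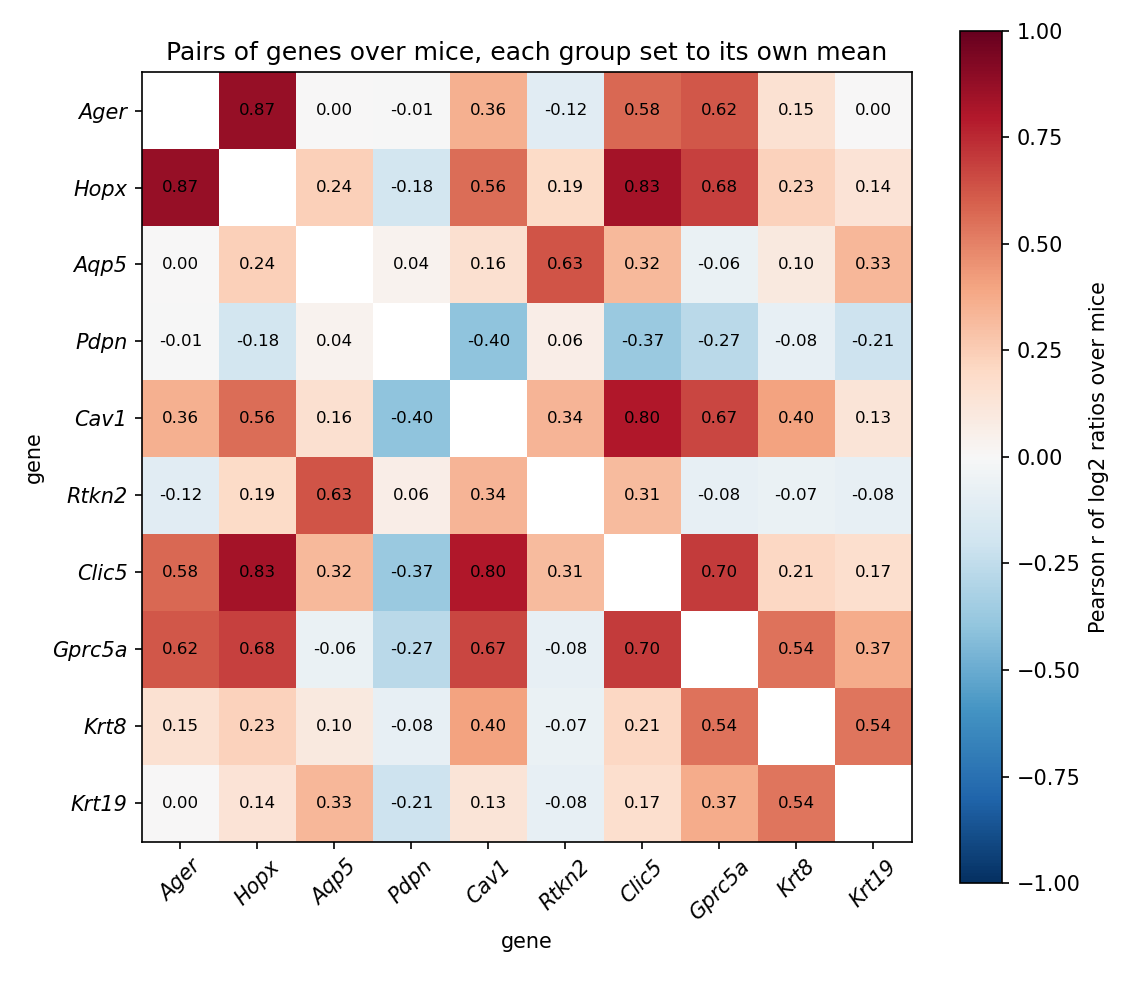
Pearson correlation of log2 ratios between each pair of the 10 genes (both axes) over mice, with each group set to its own mean. Ager, Hopx, Clic5 and Gprc5a had values of 0.58 to 0.87 with one another, and Pdpn had values down to -0.40.

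The genes whose log2 ratio followed each member most closely over the arrays were sought among about 15083 expressed genes, as a description without a test. Septin4 (r = 0.93), Col4a4 (0.90), a basement membrane collagen, and Egfl7 (0.90) were closest to Hopx. The endothelial gene Plvap (0.88), Hopx (0.88) and Ipo13 (0.87) were closest to Ager over 19 arrays. Ptprb (0.87), Tbx2 (0.84) and Hopx (0.84) were closest to Clic5.

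Lmo7 (0.87), Tnpo2 (0.87) and Trim8 (0.85) were closest to Cav1, and Vegfa (0.77), Apold1 (0.71) and Itgb6 (0.70) to Aqp5. Cstdc2 (0.85), Plscr4 (0.82) and Kcns3 (0.81) were closest to Rtkn2. Babam2 (0.86), Urgcp (0.84) and Tubgcp2 (0.84) were closest to Gprc5a. For Pdpn they were Cstb (0.82), an inhibitor of lysosomal proteases, Nudt22 (0.78) and Ino80c (0.76), none of which is among the type I cell genes listed. For Krt19 they were Rtca (0.87), the keratin Krt42 (0.83) and Sgf29 (0.82), and for Krt8 Lrrfip2 (0.82), Rpusd1 (0.77) and Otud3 (0.76).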

How the data were processed

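Per the labels and file headers, the authors deposited scanner intensities of each array, as the median of the pixels of a spot per channel, written by Feature Extraction 10.7.3.1 and neither background subtracted nor normalized. A matrix of log2 ratios normalized by the authors, in a way not given in the sources used here, served as an alternative (column medians -0.05 to -0.02, Pearson r of 0.834 to 0.998 with the ratios computed here). Spots marked as outliers were left out. Within each array, log2 Cy5/Cy3 ratios were loess normalized (span 0.3), and replicate spots were reduced to their median for 55681 probes. Of these, 26413 were named by RefSeq accession and 125 through the study's tables. A gene is represented by its probe of highest mean intensity. Dose and slide were fixed effects in limma 3.58.1 (R 4.3.3) over 22 arrays, with 12 residual degrees of freedom and Benjamini-Hochberg adjustment over all probes. The study's own test, a shrinkage F test, was not run. Expression required a Cy5 signal above the mean (5% trimmed) plus 3 trimmed SD of 308 negative controls in 80% or more of a group's arrays. Calls needed an adjusted p of at most 0.05 and 1.5-fold. Slides coincide with scan days. The number of arrays limits the precision, and each array is 1 mouse. Tested on simulated data, 88% of 100 probes changed by 1.0 and 97% of 100 changed by 1.5 on the log2 scale at 162 µg were called. These were expressed probes picked at random, and 4 unchanged probes were called as well. The 10 genes had standard errors of 0.16 (Gprc5a) to 0.26 (Ager) at 162 µg, above the median of 0.14 over expressed genes. The simulated shares therefore do not carry over to them. Named are all 10 genes, the called genes of each other list (at most 6 in full), the 2 brightest genes of marker lists of other cell types, and the 3 most similar genes, and any others were chosen after their values were seen. The members and lists were chosen with earlier results of these data known.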

Additional observations from a re-analysis of the deposited data

Results flagged for a closer look

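Krt19 differed between the doses, being 0.68 higher on the log2 scale at 162 µg than at 18 µg by a direct test (limma adjusted p = 0.0452), while its values against controls were 0.61 and -0.07. The difference rests near the threshold, as given above.

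In 8 of 40 combinations of gene and group 1 mouse stood apart by Dixon's ratio, where chance gives about 1 in 20. The mouse numbered 1 at 18 µg was low in Aqp5 (4.79) and Hopx (3.67), and control replicate 1 was low in Cav1 (0.77) and Clic5 (6.02). Both lay on slide 1. Control replicate 4 was high in Gprc5a (4.25), 162 µg replicate 3 was high in Cav1 (2.96), and Rtkn2 was low in 54 µg replicate 5 (1.34) and 162 µg replicate 6 (1.31), both on slide 6.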

How the results depend on the processing

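At 162 µg against control the count of called genes was 0 instead of 1 with median centring or no normalization and 2 with the Cy5 channel alone (Pdpn and Gprc5a), and it ranged from 1 to 2 with single mice left out. At 54 µg it was 1 instead of 0, Pdpn (0.74, limma adjusted p = 0.0429), when only the 2 groups compared were fitted. At 18 µg it was 0 in all settings. Between 162 µg and 18 µg it was 0 instead of 1 with normexp, median centring, no normalization, quantile normalization, the deposited log2 table, no slide term, only the 2 groups compared, and without slides 3 and 6, a setting chosen after seeing the data, and it ranged from 0 to 1 with single mice left out. The Krt19 difference there was 0.52 to 0.89. With the Cy5 channel alone Krt19 lost its call and Gprc5a gained one (0.88, limma adjusted p = 0.00389).

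With the replicate number as a block in place of slide, the count between 162 µg and 18 µg was 0, with Krt19 at 0.72 (limma adjusted p = 0.0698), and no other call changed. Whether equal numbers pair the samples was not tested. Of 31 pairs of arrays with 1 number in different groups, 20 had a correlation above 0.1. The lowest value was -0.17, the median 0.17 and the highest 0.625. Among such pairs on different slides, 10 of 20 had a correlation above 0.1 (median 0.10).

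In 82 of 560 values under the alternatives, and 79 of 880 with single mice left out, the sign changed. A fold change within 2 standard errors of 0 in both fits was given no direction. Among the 82, the changes with a direction were Pdpn at 18 µg, -0.0764 without normalization, where the median of all genes was -0.42, and Hopx between 162 µg and 18 µg, 0.48 with the Cy5 channel alone. The cause was not tested. With 5 or 6 mice a group and a median standard error of 0.14 at 162 µg, small changes could not be seen.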
